A study of Mus musculus with 2 samples.

Results

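The subject is a set of 10 mouse genes of the inflammasome and of the related NOD receptors: Nlrp3, Nlrc4, Aim2, Nlrp12, Pycard, Casp1, Casp4, Gsdmd, Nod1 and Nod2. They are the rows of the deposited expression table whose gene symbol equals one of these names, 10 of 23309 rows, and each name matched 1 row. The set was chosen by its FPKM values in both conditions, with the comparison described here already known, so the members' values and the authors' calls on them are given as a description and nothing is tested on them. The first group holds bone marrow progenitors given 5 nM 4-hydroxytamoxifen (4OHT) for 72 h, and the second holds the same kind of cells given ethanol, the vehicle. All cells carried loxP-flanked Cebpa alleles (Cebpaf/f) and CreER, a Cre recombinase that 4OHT activates, came from lineage-depleted marrow, and grew with IL3. All had also been transduced with MIGR1 retroviruses for HA-tagged Hoxa9 and Flag-tagged Meis1, so both groups are transformed cells, and 4OHT itself and active Cre differ between them together with Cebpa. The promoter of CreER and the number of mice or cultures were not given in the sources used here. Each of the 2 samples joins 2 replicates, so a gene has 1 value per condition, no spread can be given, and the depth behind a value is unknown.

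An inflammasome is a cytosolic complex that turns the detection of a microbe or of cell damage into inflammatory cell death. A sensor such as NLRP3, NLRC4 or AIM2 recruits caspase-1, in most cases through the adaptor ASC, the product of Pycard. Caspase-1 then matures interleukin-1 beta and interleukin-18 and cleaves gasdermin D, whose fragment opens pores in the cell membrane. In mouse, Casp4 encodes caspase-11, which binds bacterial lipopolysaccharide inside the cell and also cleaves gasdermin D. NOD1 and NOD2 detect fragments of bacterial cell walls and signal through the kinase RIPK2 to NF-kB rather than through caspase-1. In macrophages the Nlrp3 transcript is scarce until signals such as those of Toll-like receptors induce it.

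Of the 10 members, 3 were called lower after 4OHT, Nlrp3, Nod1 and Pycard, none was called higher, also at an unadjusted deposited p under 0.05, 6 were tested and not called, and Nlrp12 was not tested. A gene counts as called when the authors' deposited table gives status OK and a q under 0.05. The same rule called 372 of 11953 tested rows lower, which is 3.11%, and 335 higher, which is 2.8%. Cebpa, the gene that the activated Cre deletes, had 42.8 FPKM (fragments scaled for transcript length and library depth) after 4OHT against 109 FPKM in vehicle cells, 39.2% of the vehicle level. In such bulk RNA, fewer cells of a type and less RNA per cell cannot be told apart.

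Among the sensors, Nlrp3 had 0.585 FPKM after 4OHT and 8.21 FPKM in vehicle cells. It fell 14.0-fold, to 7.12% of the vehicle level. Its q of 0.00165 is the smallest in the authors' deposited table, and 363 rows share it. On the log2((4OHT FPKM + 1)/(vehicle FPKM + 1)) scale, which understates the change of low genes, the ratio was -2.54. That was the 5th lowest ratio among the 372 rows called lower and the 18th lowest among all tested rows. By level, Nlrp3 stood above 5.96% of the tested rows after 4OHT and above 38.5% of them in vehicle cells.

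Neither Aim2 nor Nlrc4 was called. Aim2, whose product binds double-stranded DNA in the cytosol, had 15.9 FPKM after 4OHT and 16.0 FPKM in vehicle cells, 99.3% of the vehicle level. Nlrc4, whose product acts with NAIP proteins that bind flagellin and parts of bacterial secretion systems, had 1.29 FPKM after 4OHT and 1.33 FPKM in vehicle cells. Each had a q of 1.00 in the authors' deposited table. Nlrp12, an NLR gene of myeloid cells, had 0.0767 FPKM after 4OHT and 0.174 FPKM in vehicle cells and was marked as not tested there. FPKM is scaled by transcript length, so levels of different genes can be set side by side. Of the summed FPKM of Nlrp3, Nlrc4, Aim2 and Nlrp12, Nlrp3 made up 3.28% after 4OHT and 31.9% in vehicle cells, and Aim2 89.1% after 4OHT and 62.2% in vehicle cells. Aim2 thus had the highest FPKM of these sensors in both conditions.

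Pycard, the adaptor gene, had 25.7 FPKM after 4OHT and 37.2 FPKM in vehicle cells, so it fell to 69.2% of the level in vehicle cells. Its q was 0.0279 in the authors' deposited table. That table also holds a second yes-or-no column for differential expression. In every row this mark is set when q is under 0.05 and the linear fold is at least 1.5. It was set for 334 of the rows called lower, or 2.79% of those tested, and for Nlrp3 and Nod1, but not for Pycard, which was 1.45-fold lower. The FPKM of Pycard was 44.0 times that of Nlrp3 after 4OHT and 4.53 times that of Nlrp3 in vehicle cells.

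None of the protease and pore genes was called. Casp1 had 33.4 FPKM after 4OHT and 31.3 FPKM in vehicle cells. Casp4 had 13.3 FPKM after 4OHT and 10.9 FPKM in vehicle cells, and its q of 0.784 was the lowest among the 6 members that were tested and not called. Gsdmd had 27.3 FPKM after 4OHT and 30.0 FPKM in vehicle cells. Across those 6, the 4OHT level lay between 91.2% and 122% of the vehicle level, Gsdmd at the low end and Casp4 at the high end.

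Of the NOD receptors, Nod1 fell and Nod2 was not called. Nod1 had 2.73 FPKM after 4OHT and 4.57 FPKM in vehicle cells, 1.68-fold lower, with q = 0.0101 in the authors' deposited table. Nod2 had 0.740 FPKM after 4OHT and 0.764 FPKM in vehicle cells, with q = 1.00 there, and was the lower of the pair in both conditions. No test of the difference between the 2 ratios could be made.

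Ordered by level, the members after 4OHT ran from Casp1 through Gsdmd, Pycard, Aim2, Casp4, Nod1, Nlrc4, Nod2 and Nlrp3 down to Nlrp12. In vehicle cells the order was Pycard, Casp1, Gsdmd, Aim2, Casp4, Nlrp3, Nod1, Nlrc4, Nod2 and Nlrp12. Casp1 thus led after 4OHT and Pycard in vehicle cells, and Nlrp3 stood below Nod1, Nlrc4 and Nod2 after 4OHT and above them in vehicle cells. With 1 value per condition, whether neighbours in either order differ beyond their spread cannot be said. In all, 8 of the 10 members reached 1 FPKM in the higher condition, and Nod2 and Nlrp12 did not. The median log2 ratio of the 9 tested members was -0.03, beside 0.00 over all tested rows.

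**Figure D1:**
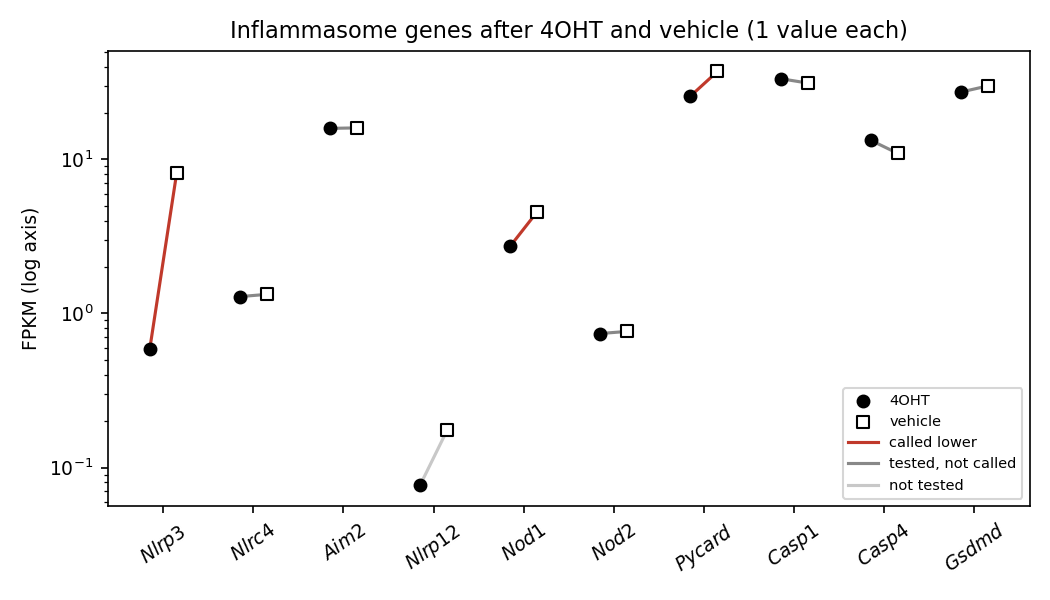
FPKM of the 10 members on a log axis, 4OHT (filled circles) left of vehicle (open squares), 1 value per condition and so no error bars, with the joining line coloured by the authors' call. Nlrp3 has by far the steepest line of the tested members, with 0.585 FPKM after 4OHT against 8.21 FPKM in vehicle cells, while the lines of Aim2, Casp1, Gsdmd, Nlrc4 and Nod2 are close to level.

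**Figure D2:**
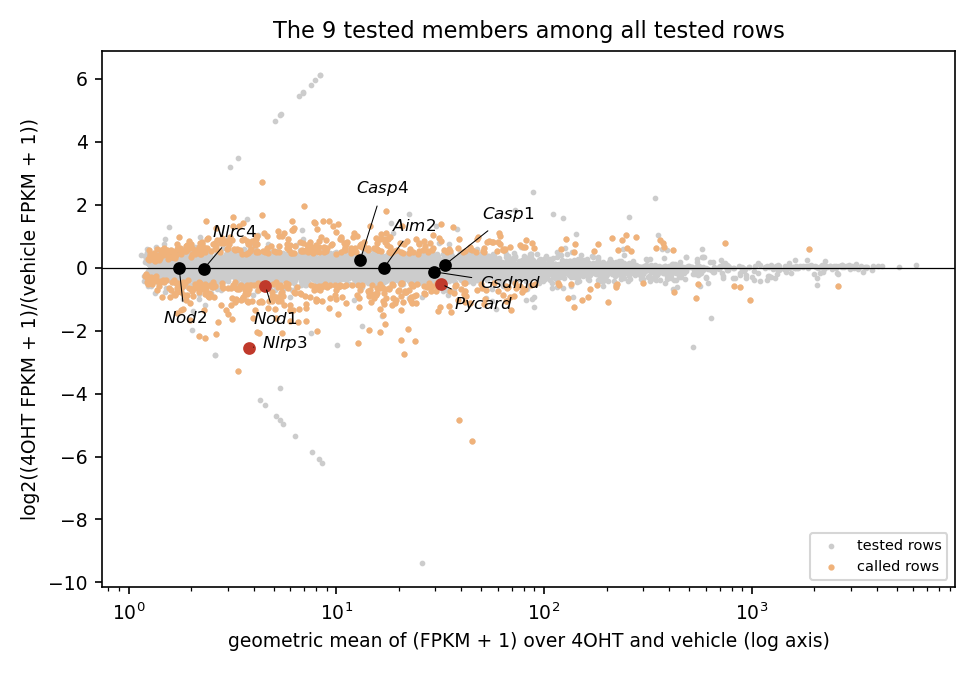
Log2((4OHT FPKM + 1)/(vehicle FPKM + 1)) of every tested row (grey, called rows in orange) against the geometric mean of FPKM + 1, with the 9 tested members in red where called lower and in black otherwise. Nlrp3, at -2.54, lies well below the band of rows of its level, and Nod1 and Pycard lie near the lower edge of the band.

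The smallest change that was called in the authors' table depended on the level. For rows of 20 to 100 FPKM in the higher condition, where Pycard, Casp1 and Gsdmd lie, the smallest fall that was called was 1.39-fold. The smallest called rise there was also 1.39-fold, against a Casp1 ratio of 1.07. For rows of 5 to 20 FPKM, the level of Nlrp3, Aim2 and Casp4, the smallest called fall was 1.47-fold and the smallest called rise 1.41-fold, against a Casp4 ratio of 1.22. For rows of 1 to 5 FPKM, which include Nod1 and Nlrc4, the smallest called fall was 1.49-fold, and below 1 FPKM, the level of Nod2, it was 1.98-fold. All 6 members that were tested and not called had changes below these sizes. The sizes come from called rows and are not a limit of detection, since larger changes also went uncalled. Mefv, the gene of pyrin, with 1.12 FPKM after 4OHT and 1.94 FPKM in vehicle cells, was 1.74-fold lower and not called. Whether the 6 members differ between the conditions by smaller amounts cannot be said.

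The promoters of the members that fell are shown to set the letters of known motifs beside the values, with Casp1 and Casp4 as members that were not called. RefSeq promoters on GRCm38.p6 matched 9 of the 10 members, with 12 start sites, and the 250 bases before each start were searched on both strands. The motifs were the C/EBP motif TTGCNNAA, the PU.1 motif GAGGAA, the interferon response motif GAAANNGAA and the NF-kB motif, which is given by name. Each sequence runs 5′ to 3′ in the direction of the gene, and capitals mark matches on either strand. The first Nlrp3 start has the window chr11:59541319-59541568 and the second, further along the gene, chr11:59542436-59542685, both on the plus strand. The Pycard window is chr7:127993868-127994117 and that of the upstream Nod1 start chr6:54972613-54972862, both on the minus strand. The Casp1 window is chr9:5298267-5298516 and that of the first Casp4 start chr9:5308599-5308848, both on the plus strand.
Nlrp3, first start: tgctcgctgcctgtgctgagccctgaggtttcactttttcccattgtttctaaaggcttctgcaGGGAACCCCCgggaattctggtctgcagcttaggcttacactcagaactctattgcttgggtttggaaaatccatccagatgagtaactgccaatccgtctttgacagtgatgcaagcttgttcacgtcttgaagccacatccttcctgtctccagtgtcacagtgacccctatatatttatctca
Nlrp3, second start: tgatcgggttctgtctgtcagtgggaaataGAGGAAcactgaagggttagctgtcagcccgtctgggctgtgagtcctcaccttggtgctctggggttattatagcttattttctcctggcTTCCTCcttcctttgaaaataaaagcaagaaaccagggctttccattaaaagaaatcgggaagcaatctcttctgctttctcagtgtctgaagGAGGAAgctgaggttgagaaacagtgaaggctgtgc
Pycard: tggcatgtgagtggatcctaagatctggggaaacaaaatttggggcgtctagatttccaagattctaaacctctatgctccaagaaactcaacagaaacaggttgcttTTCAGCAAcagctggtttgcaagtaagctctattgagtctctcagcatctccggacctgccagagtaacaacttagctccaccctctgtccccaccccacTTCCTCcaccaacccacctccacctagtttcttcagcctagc
Nod1, upstream start: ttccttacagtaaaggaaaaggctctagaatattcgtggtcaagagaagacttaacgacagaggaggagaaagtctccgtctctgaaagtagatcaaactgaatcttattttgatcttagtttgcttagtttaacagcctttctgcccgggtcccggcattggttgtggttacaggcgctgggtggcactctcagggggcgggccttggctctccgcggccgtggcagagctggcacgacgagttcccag
Casp1: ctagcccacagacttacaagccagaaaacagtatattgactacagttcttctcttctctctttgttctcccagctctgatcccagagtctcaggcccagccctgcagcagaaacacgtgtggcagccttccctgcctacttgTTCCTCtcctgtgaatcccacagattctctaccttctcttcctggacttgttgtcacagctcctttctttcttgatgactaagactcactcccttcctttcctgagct
Casp4, first start: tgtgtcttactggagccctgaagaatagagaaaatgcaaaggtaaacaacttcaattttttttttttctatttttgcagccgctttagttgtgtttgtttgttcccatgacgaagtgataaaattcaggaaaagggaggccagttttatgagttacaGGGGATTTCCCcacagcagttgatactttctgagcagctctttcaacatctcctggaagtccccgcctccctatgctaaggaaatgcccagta

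None of the 4 motifs was found in the windows of all 3 members that fell, and PU.1 letters were found for both Nlrp3 and Pycard. The window of the second Nlrp3 start held 3 PU.1 matches, the nearest 36 to 31 bases before the start, and that of the first start held 1 NF-kB match, 186 to 177 bases before it. The bases that follow the second start were found in the GENCODE transcripts of Nlrp3, and those that follow the first were not. Pycard held 1 C/EBP match, 142 to 135 bases before the start, and 1 PU.1 match. Neither Nod1 start held any of the 4 motifs. Among members that were not called, Nlrc4 held a C/EBP match, as did the untested Nlrp12, Aim2 and Casp1 held PU.1 matches, and both Casp4 starts held overlapping NF-kB matches. Over all 32851 promoters in the table, 9.56% held the C/EBP motif, 23.3% the PU.1 motif, 3.90% the NF-kB motif and 7.13% the interferon response motif, which no member held. A match is a run of letters and not a measured site.

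Rows beside the members on the chromosome were mostly not called. Nlrp3 lies on chromosome 11 of mm9 at 59356188 to 59380458, and none of the 7 tested rows within 200 kb of it was called. Of these, Zkscan17, a zinc finger gene, had 16.5 FPKM after 4OHT and 15.6 FPKM in vehicle cells. Nod1 lies on chromosome 6 at 54873936 to 54922606, and none of its 3 tested neighbours was called. Pycard lies on chromosome 7 at 135134887 to 135137381, and 1 of its 14 tested neighbours was called. That neighbour was Itgam, the alpha chain of an integrin of monocytes and neutrophils, 68.8 kb away, which fell to 14.5 FPKM after 4OHT, against 33.1 FPKM in vehicle cells.

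Casp1 and Casp4 are neighbours as well, on chromosome 9 at 5298517 to 5307281 and 5308860 to 5336791, with a gap of 1.58 kb. The next row, Casp12, a caspase gene of the same group, lies 8.69 kb beyond Casp4. It rose to 1.14 FPKM after 4OHT, against 0.395 FPKM in vehicle cells, with q = 0.00444 in the authors' deposited table. These 3 genes thus had higher values after 4OHT in this table, but the rise passed the authors' test for Casp12 alone. These paralogs share sequence, and the handling of reads that match several of them was not stated. Aim2 lies on chromosome 1 at 175350735 to 175396167, and its 1 tested neighbour, the AIM2-like receptor gene Pyhin1, fell.

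**Figure D3:**
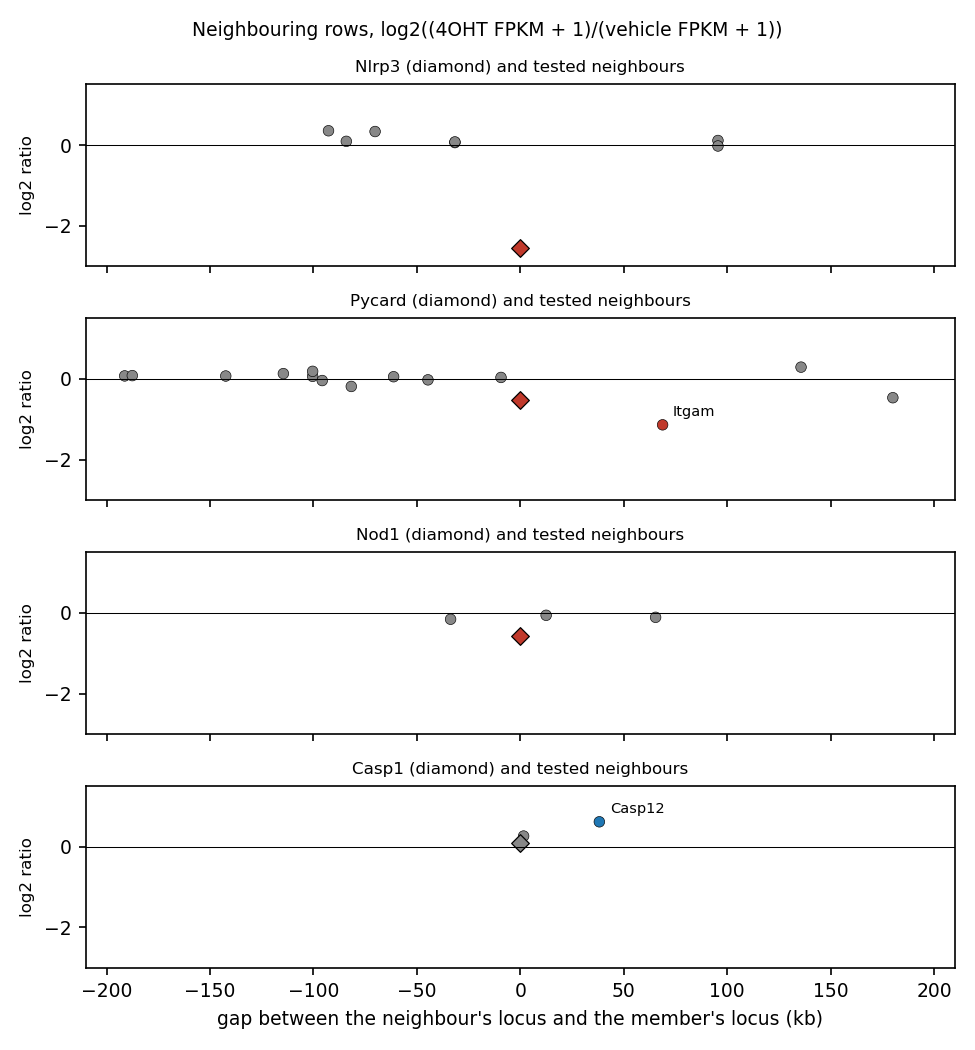
Log2((4OHT FPKM + 1)/(vehicle FPKM + 1)) of Nlrp3, Pycard, Nod1 and Casp1 (diamonds) and of the tested rows within 200 kb (circles), against the gap between loci in kb, red where called lower, blue where called higher and grey where not called. None of the neighbours of Nlrp3 or Nod1 is called, Itgam fell beside Pycard, and Casp12 rose beside Casp1.

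The rest of the pathway was described through 9 lists with 110 genes in all. Of these, 90 were tested, 5 were called lower and 2 higher, beside 3.11% called lower and 2.8% called higher over all tested rows. The lists were written with earlier results of these data known. Of 14 other NLR and pyrin sensors 11 were tested, 1 rose and 1 fell, with a median log2 ratio of 0.00. At an unadjusted deposited p under 0.05, 1 was higher and 3 were lower, Naip1, Naip2 and Mefv. The share of all tested rows under that p was not computed, so no such count, here or in the other lists, can be set against it. Nlrc3, an NLR that dampens immune signalling, rose to 3.94 FPKM after 4OHT, against 1.91 FPKM in vehicle cells. Naip1, a sensor partner of NLRC4, fell to 0.0999 FPKM after 4OHT, against 0.314 FPKM in vehicle cells, so both values are very low. Naip2, the most abundant NAIP gene here, had 8.13 FPKM after 4OHT and 10.7 FPKM in vehicle cells and was not called, nor was Nlrc5, a regulator of MHC class I genes, with 7.99 FPKM after 4OHT and 6.43 FPKM in vehicle cells. The Naip copies lie together and share sequence, so their values are uncertain. Mefv, the gene of pyrin, had 1.12 FPKM after 4OHT and 1.94 FPKM in vehicle cells, with q = 0.0605 in the authors' deposited table. Of 6 AIM2-like receptors 3 were tested and 1 fell, Pyhin1, to 0.657 FPKM after 4OHT, against 1.61 FPKM in vehicle cells, and the list's median log2 ratio was 0.00. No other gene of that list had a deposited p under 0.05.

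The cytokines that inflammasomes mature were below 1 FPKM in both conditions. Il1b had 0.482 FPKM after 4OHT and 0.637 FPKM in vehicle cells, and Il18 had 0.771 FPKM after 4OHT and 0.492 FPKM in vehicle cells, and neither was called. Of 11 cytokine and receptor genes 8 were tested and 1 fell, with a median log2 ratio of -0.14. At an unadjusted deposited p under 0.05, 2 were lower, Il1rn and Il18bp, which binds and blocks interleukin-18 and had 2.41 FPKM after 4OHT and 3.96 FPKM in vehicle cells. The gene that fell was Il1rn, the antagonist that blocks the interleukin-1 receptor, with 1.29 FPKM after 4OHT against 5.95 FPKM in vehicle cells. The receptor itself, Il1r1, was at 0.00568 FPKM after 4OHT and listed at 0 in vehicle cells. Il18rap, a chain of the interleukin-18 receptor, had 15.5 FPKM after 4OHT and 17.2 FPKM in vehicle cells.

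Genes that act on NLRP3 or downstream of the NOD receptors showed no called member. Of 20 genes of NLRP3 activation and control 19 were tested and none was called or had a deposited p under 0.05, with a median log2 ratio of 0.02. Nek7, a kinase that binds NLRP3, had 20.4 FPKM after 4OHT and 19.9 FPKM in vehicle cells, and Txnip had 84.0 FPKM after 4OHT and 84.7 FPKM in vehicle cells. The 20 tested genes of NOD1 and NOD2 signalling, of 21 listed, had no call and a median of 0.05. Of these, 2 had higher values after 4OHT at an unadjusted deposited p under 0.05, Tab2 and Erbin, the second under an older symbol. Ripk2 had 7.53 FPKM after 4OHT and 7.99 FPKM in vehicle cells. The 9 tested GTPase and regulator genes of the caspase-11 and AIM2 routes, of 10 listed, had no call and a median of 0.09. At an unadjusted deposited p under 0.05, 1 of them was higher after 4OHT, Irgm1, and 1 lower, Gbp3. Of 8 other caspases 7 were tested and Casp12 rose, with a median of 0.13, and no other had a deposited p under 0.05. Of 9 genes of the other gasdermins and membrane rupture 2 were tested, neither was called, and their median was 0.12, with 1, Gsdme, higher at an unadjusted deposited p under 0.05. Ninj1, which ruptures the membrane of dying cells, was high in both conditions, with 176 FPKM after 4OHT and 191 FPKM in vehicle cells. The other tested one was Gsdme, listed under an older symbol, with 6.91 FPKM after 4OHT and 5.15 FPKM in vehicle cells. Gsdmd thus had the highest FPKM of the listed gasdermin genes in both conditions.

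Receptors that prime Nlrp3 transcription fell in part. Of 11 priming receptors and adaptors, all tested, 2 fell and none rose, and the median log2 ratio was -0.01. Tlr4, the receptor for lipopolysaccharide, had 11.8 FPKM after 4OHT against 21.4 FPKM in vehicle cells, and its co-receptor Cd14 had 8.26 FPKM after 4OHT against 16.9 FPKM in vehicle cells. Both had q = 0.00165 in the authors' deposited table. Tlr2 had 3.40 FPKM after 4OHT and 3.12 FPKM in vehicle cells, and the adaptor Myd88 had 30.3 FPKM after 4OHT and 32.6 FPKM in vehicle cells. The NF-kB subunit gene Nfkb1 had 100.1 FPKM after 4OHT and 73.6 FPKM in vehicle cells, with q = 0.0888 there, and was the 1 gene of this list that was higher at an unadjusted deposited p under 0.05.

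**Figure D4:**
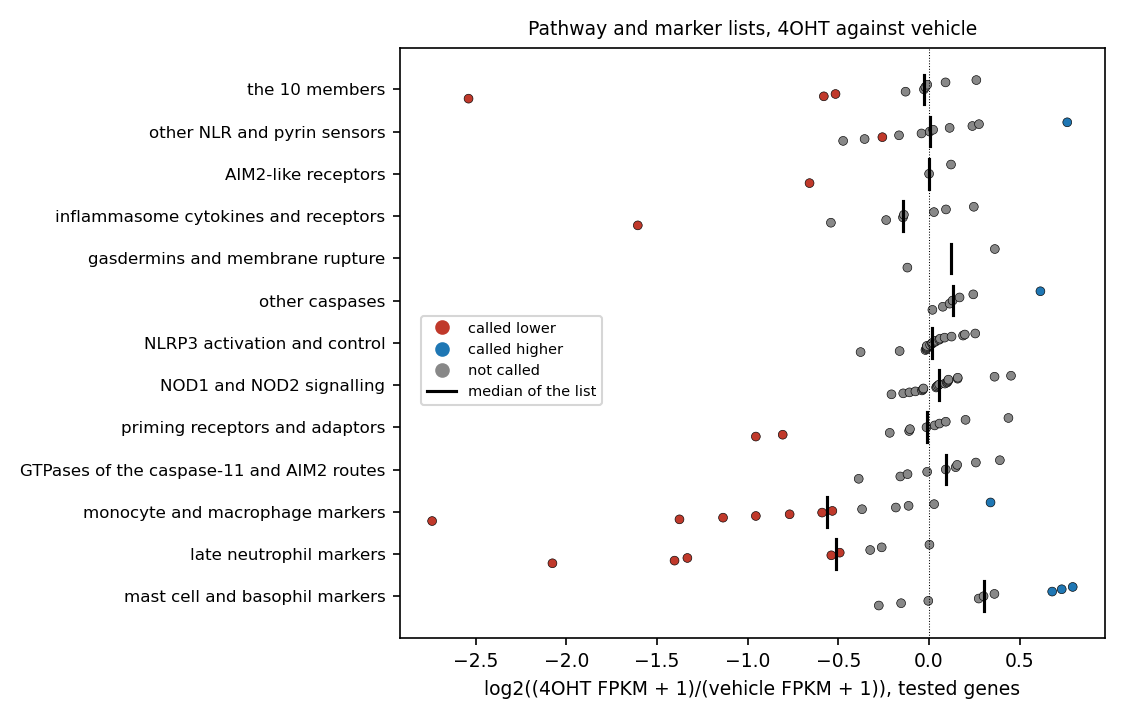
Log2((4OHT FPKM + 1)/(vehicle FPKM + 1)) of the tested genes of each list (points, red where called lower, blue where called higher, grey where not called), with the list's median as a black bar. The medians of the pathway lists lie between -0.14 and 0.13, and those of the monocyte and late neutrophil markers lie lower, at -0.56 and -0.52. The median of the mast cell and basophil markers lies higher, at 0.30.

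Of the markers of monocytes and neutrophils, cells in which Nlrp3 is known to be expressed, some also fell. The marker counts below stand beside 3.11% called lower and 2.8% called higher over all tested rows. The marker lists, too, were written with earlier results of these data known. Of 15 monocyte and macrophage markers 12 were tested, 7 fell and 1 rose, Mrc1, and the list's summed level was 630 FPKM after 4OHT and 1024 FPKM in vehicle cells. Cd14 is 1 of these 7 and is the same gene as in the priming list. Without Ly6c2, which had 323 FPKM after 4OHT and 551 FPKM in vehicle cells, the sum was 307 FPKM after 4OHT and 473 FPKM in vehicle cells. F13a1, the gene of a clotting factor subunit made by monocytes, had 7.17 FPKM after 4OHT and 53.6 FPKM in vehicle cells, while Csf1r, the receptor that macrophages need, had 2.55 FPKM after 4OHT and 2.84 FPKM in vehicle cells. Csf1r was 1 of 4 monocyte markers that were tested and not called. Of these, Adgre1, listed under an older symbol, had 129 FPKM after 4OHT and 147 FPKM in vehicle cells. Ccr2, also not called, had 87.8 FPKM after 4OHT and 114 FPKM in vehicle cells. Of 12 late neutrophil markers 8 were tested and 5 fell, among them Lcn2, S100a8, S100a9 and Cxcr2, with a sum of 83.6 FPKM after 4OHT and 148 FPKM in vehicle cells. The defining markers Ltf, with 0.0630 FPKM after 4OHT and 0.0751 FPKM in vehicle cells, and Camp, with 0.177 FPKM after 4OHT and listed at 0 in vehicle cells, were near 0, and Retnlg was listed at 0 in both. Of 11 mast cell and basophil markers 9 were tested and 3 rose, Kit, Cpa3 and Gata2, with a sum of 1233 FPKM after 4OHT and 763 FPKM in vehicle cells, and Mcpt4 was listed at 0. Cpa3, a mast cell protease gene, had 975 FPKM after 4OHT and 562 FPKM in vehicle cells, most of the sum in both. Without Cpa3 the sum was 259 FPKM after 4OHT and 201 FPKM in vehicle cells, and the basophil protease gene Mcpt8, not called, had 61.0 FPKM after 4OHT and 61.2 FPKM in vehicle cells. Prss34, another basophil protease gene, had 16.8 FPKM after 4OHT and 20.5 FPKM in vehicle cells and was not called. None of the lymphocyte markers was tested, and Cd3e, Cd3g, Cd4, Ms4a1 and Pax5 were listed at 0 in both conditions. Kit, a receptor typical of the progenitors named in the labels, had 32.8 FPKM after 4OHT and 20.1 FPKM in vehicle cells. The part of these markers in the values of Nlrp3, Pycard and Nod1 was not tested.

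The rows most like Nlrp3 were found by their distance in log2(FPKM + 1) over the 2 conditions, a description that rests on 2 values a gene. The nearest was AA467197, at a distance of 0.38, with 1.04 FPKM after 4OHT and 7.46 FPKM in vehicle cells. Klf2, a zinc finger transcription factor gene, followed at 0.41, with 1.09 FPKM after 4OHT and 7.70 FPKM in vehicle cells. Cldn11, a tight junction gene, came next at 0.57, with 0.0879 FPKM after 4OHT and 9.49 FPKM in vehicle cells.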

How the data were processed

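RNA sequencing libraries were made from total RNA with an Illumina TruSeq RNA kit, per the labels' protocols. Strand information was not stated, so an antisense partner cannot be told apart, although no row's locus overlaps that of a member. Per the submitters' processing notes the build is mm9, and the tools listed, without roles, are Cuffdiff 2.0.2, Bowtie2 2.0.0.7 and CASAVA 1.8.2. The authors deposited 1 FPKM value per gene and condition, each joining 2 replicates, and the scaling between conditions is not stated. The authors' deposited table also holds a p-value, a q-value, a test score, not used here, and a linear fold ratio. A Benjamini-Hochberg adjustment of the p-values of the 11953 tested rows gave the deposited q to within 5.28e-07. Every deposited p in these rows is a multiple of 5e-05, and the test behind it is not known. Since each condition has 1 value, no test was run, and the deposited q under 0.05 is the call.

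Ratios were computed in Python 3.11.15 with pandas 2.3.3 as log2((4OHT FPKM + 1)/(vehicle FPKM + 1)), with a pseudocount of 1. The members, lists and rules were chosen with earlier results of these data known. All 10 members are named, with the called genes and up to 3 of the highest uncalled genes of each pathway list, up to 4 called markers of a cell type and those listed at 0, and the 3 rows nearest Nlrp3. The uncalled Mefv, Il1b, Il18, Il18bp, Il1r1, Nek7, Txnip, Ripk2, Erbin, Gbp3, Tlr2, Csf1r, Adgre1, Ccr2, Ltf, Camp, Padi4, Mmp8, Ngp, Mcpt8, Prss34 and Zkscan17 were chosen after their values were seen. Protein sequences were not analysed here. Of the list entries, 3 were found under an older symbol. Locus starts are written from 1. Neighbours are rows within 200 kb on mm9. Counting and ratios were tested on simulated data. The alternatives were another q threshold, a 2-fold minimum, a level of 1 FPKM, other pseudocounts and 2 rescalings.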

Additional observations from a re-analysis of the deposited data

How the results depend on the processing

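The 3 members called lower, Nlrp3, Pycard and Nod1, were the same genes at q under 0.10 and with at least 1 FPKM in the higher condition. At q under 0.01 the count was 1, Nlrp3, and with at least a 2-fold change it was 1 as well, again Nlrp3. No member was called higher under any of these settings. Over all rows, at least a 2-fold change left 192 lower and 136 higher, and q under 0.01 left 254 lower and 205 higher. Over the same rows, q under 0.10 gave 435 lower and 411 higher, and at least 1 FPKM left 339 lower and 295 higher. The median log2 ratio of the tested members stayed between -0.08 and -0.03 under the pseudocounts, rescalings and level filter. For Nlrp3 the log2 ratio was -3.60 with a pseudocount of 0.1 FPKM and -3.79 with 0.01 FPKM, since its 4OHT level lies below the pseudocount of 1 FPKM. In the lists, Naip1 was not called at q under 0.01 or with at least 1 FPKM, and Mrc1 was not with at least 1 FPKM. At least a 2-fold change left 0 of the 3 mast cell markers called higher, and of those called lower it left 4 of the 7 monocyte markers, 3 of the 5 late neutrophil markers, without Cxcr2, and of the 2 priming receptors Cd14 but not Tlr4. At q under 0.01 the late neutrophil markers called lower were also 3. At q under 0.10, Mefv was called lower and Erbin and Nfkb1 higher. No log2 ratio of a called member changed sign under these settings. Leaving out a replicate was not possible, since each condition has 1 value. No paired analysis was possible because each deposited sample joins its replicates in 1 value. No read counts are held in the table, so counting error could not be given.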
